A study of Homo sapiens with 4 samples.

Results

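Heat shock proteins are molecular chaperones that bind unfolded proteins and help them fold, and the 10 genes described here encode chaperones of the cytosol and of the mitochondrial matrix. They are HSPA8, HSPH1, HSP90AA1, HSP90AB1, DNAJB1, DNAJA1, HSPB1, HSPD1, HSPE1 and CRYAB, a set listed by name, 10 of the 22017 genes to which the deposited table could be summed. The rows of the table are transcripts, and those whose identifier without version belongs in GENCODE release 29 to 1 of these genes were taken, 73 of 90627 in all. The cells were U87, a long-established line from a human glioblastoma, and their polyadenylated RNA was sequenced 48 h after lipofection with 50 nM of an oligonucleotide. In 2 libraries, mimic 1 and mimic 2, it was a mimic of tRF-3009a, a fragment of a transfer RNA. In 2 libraries, control 1 and control 2, it was the control oligonucleotide ssGL2, so all groups were transfected and none was left untreated. The numbers 1 and 2 are the replicate numbers of the labels, which name no separate cultures, so p-values measure only the spread between these libraries, which may be technical.

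In the cytosol, HSP70 proteins bind short unfolded stretches in a cycle driven by ATP. J proteins of the HSP40 family deliver the unfolded protein and speed up ATP hydrolysis, and HSP110 proteins exchange the bound nucleotide. HSP90 dimers take over clients such as kinases and steroid receptors, while small heat shock proteins hold unfolded proteins without ATP. In mitochondria HSP60 forms a barrel that is closed by a lid of HSP10. Heat shock factor HSF1 binds repeats of the unit GAA, in alternating orientation, in the promoters of many of these genes, and glioma cells are known to express several of them at a high level.

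Depth was 28860788 to 33848402 recovered reads per library. Similarity followed the number, with Pearson's r across genes of 0.984 between mimic 1 and control 1 and 0.987 between mimic 2 and control 2, against 0.941 between the mimic libraries and 0.942 between the controls. Genes are not independent replicates. Of 10 astrocyte and glioma genes, 8 were past the filter of a mean normalized count of 10. The mesenchymal markers VIM and CD44 were abundant, at 121239 to 276546 and 17935 to 41466, while GFAP was at 12.5 to 29.7, and S100B and AQP4 were not analysed here. Of 4 immune genes 2 were in the table. PTPRC, the pan-leukocyte marker, was at 2.86 to 6.72, and CD68, a lysosomal protein gene used as a macrophage marker, was at 7238 to 10220.

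The sequences below show the letters of the heat shock element in the promoters of the members, since shared elements are the known basis on which these genes respond together. RefSeq promoter windows (GRCh38.p14) were found for 9 of the 10 genes, 15 windows in all because some genes have several starts. The 250 bases before each start were searched for the paired units GAANNTTC and TTCNNGAA, each of which reads the same on both strands and which may overlap each other. At least 1 pair was found in 7 of the 15 windows, in 7 genes, and in 11.6% of the 35116 windows of all genes. Runs of 3 units, which are GAANNTTC followed by NNGAA or, on the other strand, TTCNNGAA followed by NNTTC, were found in 0.441% of all windows. Each stretch below is 30 bases on the strand of the gene, with the matched letters in capitals.
HSPA8, 55 bases before the start: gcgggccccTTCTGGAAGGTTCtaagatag
HSPA8, 230 bases before the start: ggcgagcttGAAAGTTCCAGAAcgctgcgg
HSP90AA1, 88 bases before the start: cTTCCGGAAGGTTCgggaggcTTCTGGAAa
HSP90AB1, 112 bases before the third start: ctgagattgTTCTGGAAGCTTCtggattct
HSP90AB1, 165 bases before the third start: gggagcaggTTCTGGAAGATTCatgggctc
HSPD1, 245 bases before the inner start: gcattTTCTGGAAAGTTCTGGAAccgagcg
DNAJB1, 47 bases before the start: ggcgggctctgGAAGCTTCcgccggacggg
DNAJB1, 77 bases before the start: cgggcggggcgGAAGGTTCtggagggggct
DNAJA1, 198 bases before the start: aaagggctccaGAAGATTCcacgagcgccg
HSPB1, 182 bases before the start: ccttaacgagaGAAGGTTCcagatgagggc

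The first 6 stretches, of HSPA8, HSP90AA1, HSP90AB1 and HSPD1, hold a run of at least 3 units, the longest in HSPD1. The last 4, of DNAJB1, DNAJA1 and HSPB1, hold a pair. Matches were found in HSPA8 and HSP90AA1, whose values differed most between libraries (given below), and in HSPD1 and DNAJB1, whose values differed least. HSPE1, also over 2-fold lower in number 2, had no match in its window, at chr2:197500129-197500378. The 5′ end of its main transcript HSPE1-201 lies outside that window, at 197499994, and the HSPD1 stretch lies between them. A match does not show that a factor binds, and a link between matches and these differences was not tested. The HSPA8 stretches lie at chr11:123062171-123062200 and chr11:123062346-123062375 on the minus strand. The HSP90AA1 stretch lies at chr14:102087104-102087133 on the minus strand, beside the start of HSP90AA1-201, and the window of the other transcript, HSP90AA1-202, 52.5 kb upstream, held no match. The HSP90AB1 stretches, at chr6:44247822-44247851 and chr6:44247769-44247798 on the plus strand, belong to a start that lies 842 bases downstream of the start nearest to HSP90AB1-203, the transcript with 98.8% of the values, whose own window held none. The HSPD1 stretch lies at chr2:197500061-197500090 on the minus strand. The DNAJB1 stretches lie at chr19:14518426-14518455 and chr19:14518456-14518485 on the minus strand, that of DNAJA1 at chr9:33025064-33025093 and that of HSPB1 at chr7:76302480-76302509, both on the plus strand. The windows of HSPH1 and HSPE1 held no match, and that of HSPE1 does not lie at the start of its main transcript. Distances run from the RefSeq start to the first base of the match. This start can differ from the 5′ end in GENCODE, by 199 bases for HSPA8-224, 147 for HSP90AA1-201 and 207 for HSPD1-202. The nearer HSPA8 stretch and the HSP90AA1 stretch thus lie inside HSPA8-224 and HSP90AA1-201. The HSPD1 stretch lies just upstream of the 5′ end of HSPD1-202, at 197500047.

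Levels of the genes were compared per length, as TPM (transcript copies scaled to a fixed total per library) computed from the deposited normalized counts and the annotated transcript lengths. The family made up 7062 and 3610 TPM in the mimic libraries, against 6363 and 3928 in the controls, so mimic 1 and control 1 were high and mimic 2 and control 2 low. HSP90AB1, the HSP90 that cells make constitutively, had 1530 and 950 TPM in the mimic libraries and 1375 and 1013 in the controls. HSPA8, the constitutive cytosolic HSP70, had 1736 and 620 in the mimic libraries and 1559 and 720 in the controls. HSP90AA1, the HSP90 that heat induces, had 1621 and 587 in the mimic libraries and 1396 and 665 in the controls. The ranges of these 3 genes overlapped one another, so their order is not set by these libraries. HSPD1, the mitochondrial HSP60, was at 576 to 688 TPM, a range that overlaps those of HSPA8 and HSP90AA1, and in mimic 2 it was above HSP90AA1. HSPB1, the small heat shock protein HSP27, was at 253 to 605. The lid protein gene HSPE1 lay at 171 to 425, DNAJA1, a J protein, at 163 to 290 and DNAJB1, another J protein, at 183 to 199. Their ranges overlap in part. HSPH1, which encodes HSP110, was lower than all of these in each library, at 73.4 to 108 TPM.

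CRYAB, which encodes alpha B-crystallin (ENSG00000109846.7, chromosome 11, 111908565 to 111923722, minus strand), was almost absent from the table. Its normalized counts were 2.70 and 5.73 in the mimic libraries and 4.16 and 20.2 in the controls, from 3, 6, 4 and 18 recovered reads. Control 2 was the highest, through the transcript CRYAB-207, which had 13.5 there and was listed at 0 in the other 3 libraries. The mean of CRYAB was under the filter, so 9 of the 10 genes were tested.

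**Figure D1:**
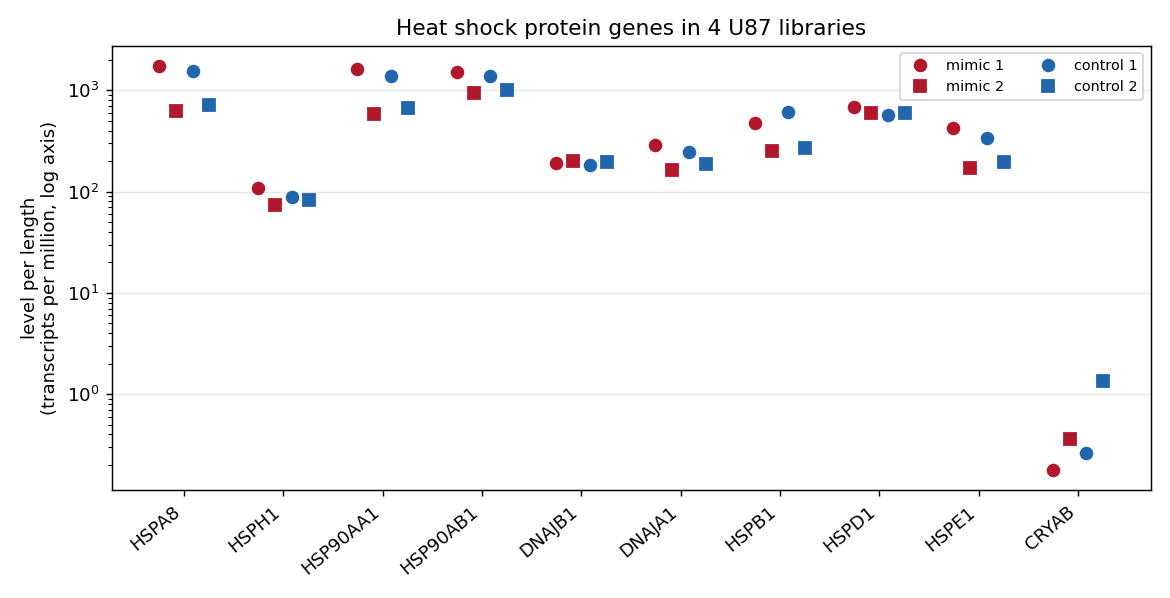
Level per length of the 10 genes in each library, in TPM on a log axis. Points are single libraries, mimic left of control, circles number 1 and squares number 2. HSP90AB1, HSPA8 and HSP90AA1 lie highest in 3 of the 4 libraries, while in mimic 2 HSPD1 (594 TPM) lies above HSP90AA1 (587 TPM). CRYAB is under 2 TPM in each library, and for 7 genes, all but DNAJB1, HSPD1 and CRYAB, both squares lie below both circles.

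The mimic was compared with the control to ask which RNAs the fragment alters. None of the 9 tested genes passed, and for each of them the mimic and control values overlapped. Over all 16523 genes the limma test called 0 at an adjusted p under 0.05 (0%), and 26 had an unadjusted p under 0.05, of which 0 were members. The groups did not overlap for 12.4% of all genes tested. The median log2 fold change of the 9 members was -0.01, as was that of all genes tested, -0.01. edgeR and DESeq2 on recovered reads also called 0 genes, with 35 and 23 at an unadjusted p under 0.05. All of these fits leave out the replicate number. With the number as a block, limma called 117 genes and edgeR 91, of which 0 were members.

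HSPA8 (ENSG00000109971.13, chromosome 11, 123057489 to 123063230, minus strand) had normalized counts of 60705 and 23215 in the mimic libraries and 57801 and 27733 in the controls. The values split by number rather than by oligonucleotide, and the means were 41960 ± 26509 and 42767 ± 21262 (SD, n = 2 each). The log2 fold change was -0.09 with a 95% interval of -1.79 to 1.60, an adjusted p of 1 with limma. HSPH1 (ENSG00000120694.19, chromosome 13, 31134974 to 31162388, minus strand), which exchanges the nucleotide of HSP70, had 5799 and 4120 in the mimic libraries against 4956 and 4724 in the controls. Both mimic values lay outside the control range, 1 on each side of it, and the log2 fold change was 0.02 with an interval of -0.66 to 0.69.

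The J protein genes had narrower intervals than HSPA8. DNAJB1 (ENSG00000132002.7, chromosome 19, 14514770 to 14529770, minus strand), which encodes the HSP40 partner of HSP70, had 6264 and 7120 in the mimic libraries and 6438 and 7066 in the controls. All 4 values lay close together, with a log2 fold change of -0.01 and an interval of -0.55 to 0.52. DNAJA1 (ENSG00000086061.15, chromosome 9, 33025211 to 33039907, plus strand), a farnesylated J protein, had 10670 and 6215 in the mimic libraries and 9373 and 7260 in the controls. Its log2 fold change was -0.02, with an interval of -0.95 to 0.92.

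The HSP90 genes again differed more by number than by oligonucleotide. HSP90AA1 (ENSG00000080824.18, chromosome 14, 102080738 to 102139699, minus strand) had 83862 and 31534 in the mimic libraries and 75304 and 36461 in the controls, a log2 fold change of -0.03 with an interval of -1.73 to 1.68. HSP90AB1 (ENSG00000096384.19, chromosome 6, 44246166 to 44253888, plus strand) had 60999 and 39489 in the mimic libraries and 57038 and 42933 in the controls, a log2 fold change of -0.01 with an interval of -0.88 to 0.86. The small differences of HSP90AA1, HSP90AB1, DNAJA1 and DNAJB1 turned to the higher side with quantile normalization, at 0.05, 0.09, 0.03 and 0.02 on the log2 scale.

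HSPB1 (ENSG00000106211.8, chromosome 7, 76302544 to 76304295, plus strand), which binds unfolded proteins and actin, was lower in the mimic libraries within both numbers. It had 6636 and 3794 in the mimic libraries and 8862 and 4074 in the controls, a log2 fold change of -0.26 with an interval of -1.63 to 1.11. HSPD1 (ENSG00000144381.16, chromosome 2, 197486581 to 197516737, minus strand) had 24993 and 21955 in the mimic libraries and 21620 and 22853 in the controls, a log2 fold change of 0.08 with an interval of -0.46 to 0.61. HSPE1 (ENSG00000115541.10, chromosome 2, 197499994 to 197503457, plus strand) had 6030 and 2450 in the mimic libraries and 4905 and 2899 in the controls, a log2 fold change of 0.03 with an interval of -1.45 to 1.5. In HSPE1 the value in mimic 1 was the highest and that in mimic 2 the lowest. The interval reaches 1 on the log2 scale, a 2-fold difference, in either direction for HSPA8, HSP90AA1 and HSPE1, and for HSPB1 too, so without a replicate block a difference of that size was not excluded for these 4 genes. With 1 library left out, each of the 9 genes took both signs, HSPA8 from -0.79 to 0.60.

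The fold changes were then taken within each number, from 1 mimic and 1 control library, which allows no test. Within number 1, 7 of the 9 genes were higher in the mimic and within number 2 lower. These were HSPA8, HSPH1, HSP90AA1, HSP90AB1, DNAJA1, HSPD1 and HSPE1. Of all genes tested 27% had that pattern, and of the 6199 genes with a mean of at least 1000, 30.9%. The largest spread was that of HSPE1, with log2 fold changes of 0.30 within number 1 and -0.24 within number 2, followed by HSPH1 at 0.23 and -0.20. DNAJA1 had 0.19 and -0.22, and HSP90AA1 had 0.15 and -0.21. The median of the 9 members was 0.15 within number 1 and -0.20 within number 2, against medians of -0.003 and -0.02 over all genes tested. All 9 values within number 1 lay between -0.42 and 0.30, inside the range of -0.58 to 0.71 that holds the 5th to 95th percentile of all genes there. Whether the 2 numbers differ in these fold changes was not tested.

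**Figure D2:**
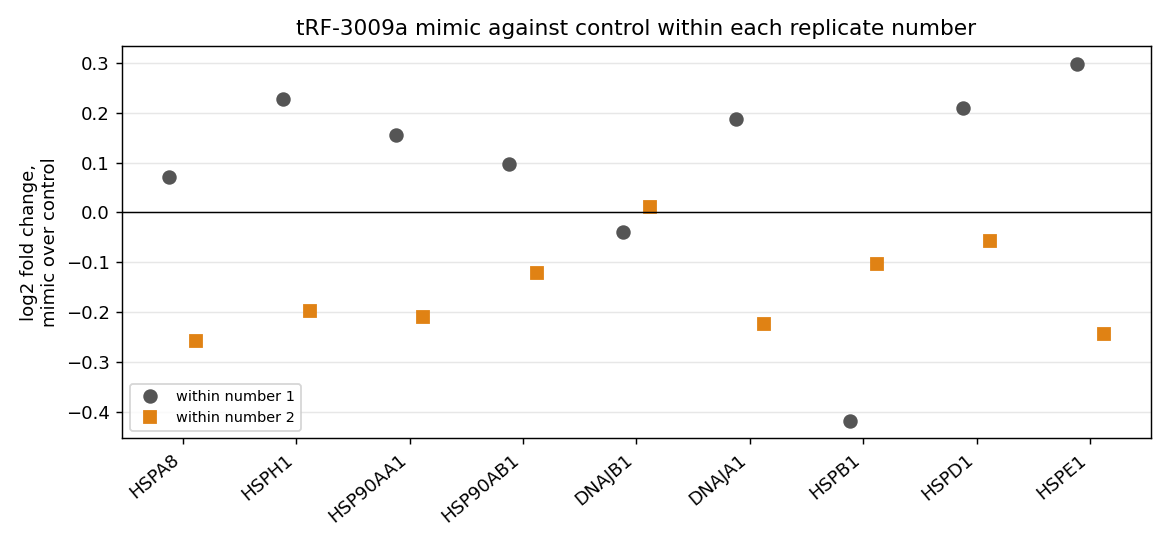
Log2 fold change of mimic over control for the 9 tested genes, taken within number 1 (circles) and within number 2 (squares). For 7 genes the circle lies above 0 and the square below it, DNAJB1 lies near 0 in both, and HSPB1 is at -0.42 within number 1 and -0.10 within number 2.

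The larger differences in the family were between the libraries numbered 2 and those numbered 1. The number is not a condition of the study and the labels do not say what it stands for, so the values are a description with no test. HSPA8 had 23215 in mimic 2 and 27733 in control 2, against 60705 in mimic 1 and 57801 in control 1. HSP90AA1 had 31534 and 36461 in the number 2 libraries, against 83862 and 75304 in mimic 1 and control 1. For both genes every number 2 value was below every number 1 value, with log2 differences of -1.22 and -1.23, number 2 minus number 1, averaged over the groups. HSPE1 was at -1.03 and HSPB1 at -0.96, DNAJA1 at -0.57 and HSP90AB1 at -0.52, HSPH1 at -0.28 and HSPD1 at -0.05. DNAJB1 alone of the 9 was higher in number 2, at 0.16. The sign was the same between the mimic libraries and between the controls for 8 of the 9 genes, and HSPD1 was at -0.19 between the mimic libraries and 0.08 between the controls.

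More than 2-fold lower in number 2 were 3 of 9 genes, HSPA8, HSP90AA1 and HSPE1, and 9.93% of all genes tested. The count was also 3 between the controls alone, with HSPB1 in place of HSPE1. The median of the 9 genes was -0.57, against 0.01 over all genes tested and 0.03 over the genes with a mean of at least 1000. Of the 9 members 8 were lower in number 2, as were 49.6% of all genes tested. The family as a whole was also taken as a share of the normalized counts that could be summed to genes. It made up 0.459% in mimic 2 and 0.5% in control 2, against 0.902% in mimic 1 and 0.811% in control 1. In bulk RNA, fewer cells of a kind and less RNA per cell cannot be told apart. Other marker sums moved with the number too. The 8 astrocyte and glioma genes summed to 140030 and 148834 in mimic 2 and control 2, against 291507 and 320080 in mimic 1 and control 1, mostly VIM. OLIG2 of that list went the other way, at 419 and 411 in mimic 2 and control 2, against 83.6 and 100.8 in mimic 1 and control 1. The values of GFAP, SOX2 and FABP7, also of that list, overlapped between the numbers. The 4 neuronal genes measured, of 5 listed, summed to 3972 and 3964 in mimic 2 and control 2, against 1447 and 1411 in mimic 1 and control 1, mostly MAP2 and SYT1, with RBFOX3 not analysed here. GAD1 of that list overlapped between the numbers. The 4 epithelial genes measured summed to 409 and 391 in mimic 2 and control 2, against 201 and 242 in mimic 1 and control 1. Of these, ESRP1 was at 173 and 201 in mimic 2 and control 2 and at 3.60 and 13.5 in mimic 1 and control 1, EPCAM was lower in number 2, at 11.4 and 16.8 against 41.4 and 45.8, and the values of KRT8 and CDH1 overlapped between the numbers. The 4 endothelial genes summed to 44.9 and 60.5 in mimic 2 and control 2, against 192 and 165 in mimic 1 and control 1. The part of these in the differences of the chaperone genes was not tested.

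**Figure D3:**
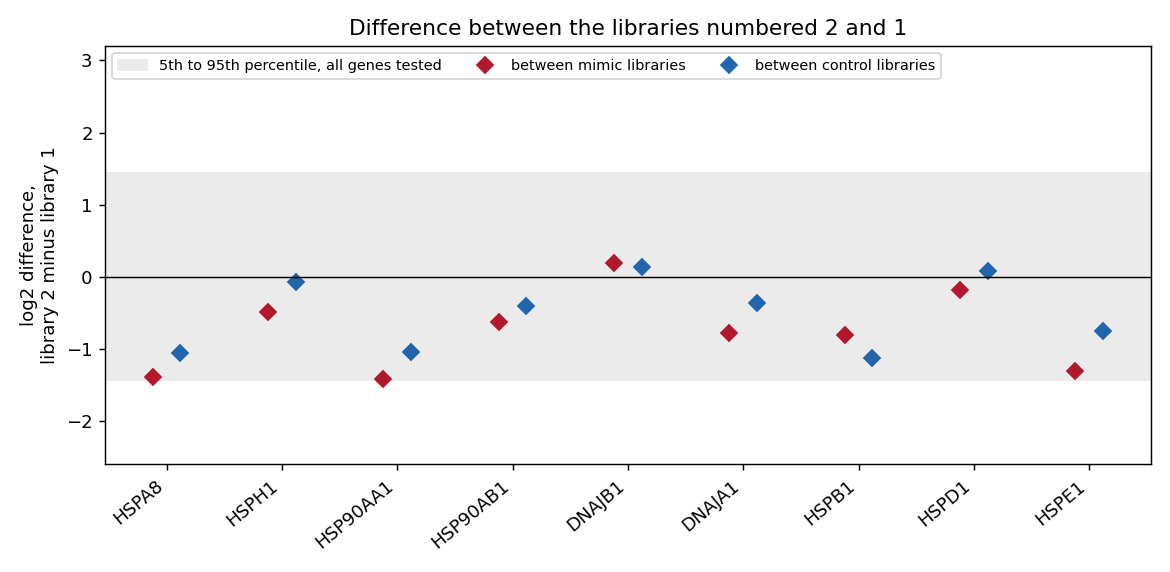
Log2 difference of library 2 minus library 1 for the 9 tested genes, between the mimic libraries and between the controls. The band is the 5th to 95th percentile of all genes tested, for the mean over both groups, -1.43 to 1.43. HSPA8 and HSP90AA1 lie at -1.39 and -1.41 between the mimic libraries and at -1.06 and -1.05 between the controls, while DNAJB1 is above 0 in both.

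The proportions between partner genes differed between the numbers. Per length, HSPA8 exceeded its J protein partner DNAJB1 3.12-fold in mimic 2 and 3.71-fold in control 2, against 9.07-fold in mimic 1 and 8.51-fold in control 1. HSPA8 over HSPH1 was 8.45 and 8.70 in mimic 2 and control 2, against 16.1 and 17.7 in mimic 1 and control 1. HSP90AA1 over HSP90AB1 was 0.618 and 0.657 in mimic 2 and control 2, against 1.06 and 1.02 in mimic 1 and control 1, so the inducible HSP90 gene was the lower of the pair in number 2 and about level with the other in number 1. HSPD1 over HSPE1 was 3.48 and 3.08 in mimic 2 and control 2, against 1.62 and 1.72 in mimic 1 and control 1.

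HSPD1 and HSPE1 lie head to head on opposite strands of chromosome 2 and are known to share a promoter region. In GENCODE all 3464 bases of HSPE1 lie within the span of HSPD1. The 5′ ends of the main transcripts HSPD1-202 and HSPE1-201, at 197500047 and 197499994, lie 53 bases apart, and the transcripts overlap between them. The values of the pair did not follow each other between the numbers. Within number 1 both genes were higher in the mimic, and within number 2 both were lower. By the root mean square difference of centred log2 values over the 4 libraries, HSPE1 was 0.49 from HSPD1, rank 12371 of 16522 genes, and its nearest member was HSP90AA1 at 0.11. The kit marks strand per the labels' protocols, and the sources used here do not say whether the counting used it, so reads of the pair cannot be told apart in the shared stretch. The readthrough gene HSPE1-MOB4, which shares 17.7% of the 31-base words of HSPE1-201, had 323 and 302 in the mimic libraries and 229 and 285 in the controls. Its mean was 6.99% of that of HSPE1, and it was not lower in both number 2 libraries than in both number 1 libraries.

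The closest pair of members was HSPA8 and HSP90AA1, whose centred values differed by 0.03 on the log2 scale over 4 libraries. HSP90AB1 and DNAJA1 followed at 0.06. Of 6128 other protein-coding genes with a mean of at least 1000, those nearest to the mean profile of the members were ANKRD13C (0.01), CAND1 (0.02), NUP133 (0.02), ERGIC2 (0.02) and ADAM10 (0.02). CAND1, which exchanges subunits of cullin ubiquitin ligases, had 3930 and 4251 in mimic 2 and control 2, against 6494 and 6193 in mimic 1 and control 1.

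By transcript, 54 of the 73 rows were past the filter and 0 of them passed the limma test over 58486 transcripts, which called 0 (0%), with 1 member transcript and 922 transcripts in all at an unadjusted p under 0.05. The 1 was HSPA8-218, a coding transcript with 0.0448% of the gene, listed at 0 in both mimic libraries and at 17.7 and 58.3 in the controls. It was chosen after its value was seen, and its adjusted p was 1.

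HSPA8 was split over 2 coding transcripts. HSPA8-224 had 29619 and 18021 in the mimic libraries and 37826 and 22342 in the controls, a log2 fold change of -0.33 ± 0.38 (SE). HSPA8-201 had 30103 and 4748 in the mimic libraries and 18905 and 4856 in the controls, a log2 fold change of 0.32 ± 1.12 (SE). The share of HSPA8-201 in the gene was 20.5% (95% Wilson interval 20% to 21%) in mimic 2 and 17.5% (17% to 18%) in control 2. In number 1 it was 49.6% (49.2% to 50%) in mimic 1 and 32.7% (32.3% to 33.1%) in control 1. The intervals cover counting error only, and not the split of reads. Every 31-base word of HSPA8-201 is also in HSPA8-224, while 277 of the 2433 words of HSPA8-224 are not in HSPA8-201. With all transcripts of GENCODE counted, HSPA8-224 too had 0 words found in no other transcript. No word of that length therefore marks either transcript on its own. HSPA8-224 was at -0.72 between the mimic libraries and at -0.76 between the controls, number 2 minus number 1, and HSPA8-201 at -2.66 and -1.96.

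HSPH1 was spread over 4 transcripts. The coding HSPH1-202 had 2180 and 1754 in the mimic libraries against 1577 and 1945 in the controls, and the coding HSPH1-209 had 2159 and 867 against 1389 and 1330. HSPH1-206, annotated for nonsense-mediated decay, had 951 and 1139 in the mimic libraries against 1553 and 1015 in the controls, or 23.8% of the gene. The longest, HSPH1-201, held 6.23%, with 361 and 262 in the mimic libraries against 318 and 280 in the controls. In none of them did the groups separate. HSPH1-202 shares 86.0% of its words with HSPH1-209 and 94.7% with HSPH1-206, so this split is uncertain. In HSPH1 as a whole at most 0.343% of the words of a transcript occur in another gene.

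The other 7 tested genes had 1 main transcript each, with 93.4% (HSPB1-201) to 99.9% (DNAJA1-201) of the gene. HSP90AA1-201 held 98.0%, and the transcript from the upstream start, HSP90AA1-202, 1.49%, named here after its values were seen. HSP90AA1-202 had 606 in mimic 2 and 772 in control 2, against 953 in mimic 1 and 1046 in control 1. The number 2 values were the lower ones for this transcript too, with differences of -0.65 between the mimic libraries and -0.44 between the controls on the log2 scale, against -1.42 and -1.06 for HSP90AA1-201. The ratio of HSP90AA1-201 to HSP90AA1-202 was 50.8 and 45.9 in mimic 2 and control 2, against 86.6 and 70.7 in mimic 1 and control 1. The start of HSP90AA1-201 has the stretch printed above and the start of HSP90AA1-202 has no match. A link between the match and these ratios was not tested. HSP90AA1-201 has 516 words that HSP90AA1-202 lacks, and HSP90AA1-202 has 647 that HSP90AA1-201 lacks.

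**Figure D4:**
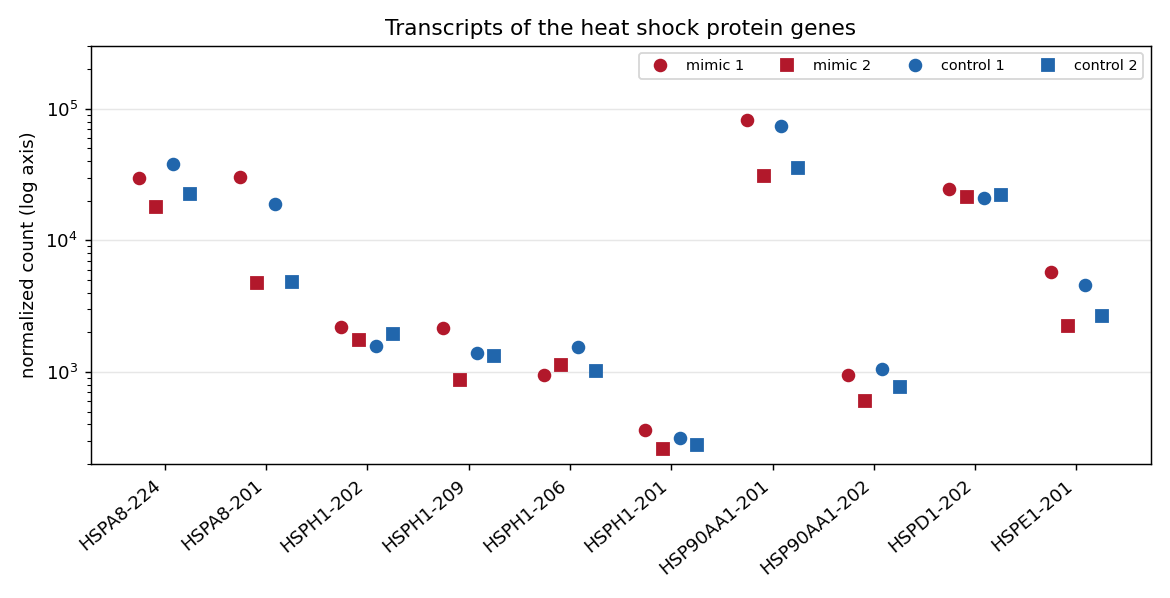
Normalized counts of 10 transcripts of HSPA8, HSPH1, HSP90AA1, HSPD1 and HSPE1 on a log axis, mimic left of control, circles number 1 and squares number 2. HSPA8-201 spans 4748 to 30103 and HSPA8-224 spans 18021 to 37826, and the values of HSP90AA1-202 spread less than those of HSP90AA1-201.

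Many members have processed pseudogenes, to which reads can be assigned in error. In another gene occur 46.3% of the words of HSPA8-201, 41.7% of HSP90AB1-203, 37.5% of HSP90AA1-201, 46.5% of HSPD1-202 and 31.5% of HSPE1-201, but 7.79% of DNAJB1-201 and 7.83% of DNAJA1-201. The values of the pseudogenes in the table were small, the largest being HSPE1P3 with 0.392% of HSPE1. HSPA8P1, HSP90AA2P and HSPD1P1 hold 17.7%, 27% and 30.3% of the words of HSPA8-201, HSP90AA1-201 and HSPD1-202. They were not analysed here, and whether reads of theirs were counted to the members was not tested. With the pseudogenes and readthrough genes in the table added to their member, 0 of the 9 genes passed.

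The rest of the chaperone system was described by 8 lists of 62 genes, 54 of which were past the filter. The limma test called 0 of them higher and 0 lower, with 0 at an unadjusted p under 0.05, and their median log2 fold change was -0.004. In each list the members with the largest and the smallest fold change are named, and none passed. Among other cytosolic HSP70 and HSP110 genes these were HSPA2, a testis-enriched HSP70, at 0.15 and HSPA4L, an HSP110, at -0.09, and among J proteins DNAJB5 at 0.15 and DNAJB2 at -0.16. The small heat shock protein genes HSPB8 and HSPB6 were at -0.14 and -0.17. FKBP5 and FKBP4, immunophilin partners of HSP90, were at 0.11 and -0.07. BAG2 and HSPBP1, regulators of the HSP70 cycle, were at 0.07 and -0.24. CCT8 and CCT3, subunits of the cytosolic chaperonin TRiC, were at 0.04 and -0.07. HSCB, the mitochondrial J protein of iron-sulphur cluster assembly, was at 0.30 and the mitochondrial protease gene CLPP at -0.16. HSF2 was at 0.09 and HSF1, which activates heat shock genes, at -0.21, with 1276 and 1387 in the mimic libraries and 1661 and 1432 in the controls. HSPA1A, a heat-inducible HSP70 gene, had 11.7 and 0 in the mimic libraries and 7.27 and 12.3 in the controls, and HSPA1B had 0 and 16.2 in the mimic libraries and 0 and 0 in the controls. They are near-identical copies of each other and were below the filter, and transcripts that did not match GENCODE were not analysed here, so these values are uncertain. DNAJA4, HSPA1L, HSPB2, HSPB7 and CRYAA were not analysed here, and HSPB3 was below the filter.

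Between the numbers, TRiC had a median log2 difference of -0.38, number 2 minus number 1, with 6 of 8 subunits lower in number 2. Over all lists 28 of 54 genes were lower in number 2, as were 49.6% of all genes tested. Within number 1 the mimic was higher and within number 2 lower for 7 of the 8 TRiC subunits. That pattern was held by 23 of the 54 genes over all lists and by 27% of all genes tested. TCP1, the first TRiC subunit, had 7380 and 8031 in mimic 2 and control 2, against 13201 and 12509 in mimic 1 and control 1. The HSP90 co-chaperones had a median of -0.06 and ran from -0.62 (UNC45A) to 0.26 (PPID), and STIP1, which links HSP70 to HSP90, was at -0.17. The mitochondrial list had a median of 0.46 and 2 of 11 genes lower in number 2. HSPA9, the mitochondrial HSP70, had 53672 and 50676 in mimic 2 and control 2, against 22767 and 21164 in mimic 1 and control 1, the opposite order to HSPA8, HSP90AA1 and HSPE1. LONP1, a matrix protease, had 12361 and 11564 against 5902 and 6714, and GRPEL2, a nucleotide exchange factor of HSPA9, had 1978 and 2121 against 986 and 1001. HSPA6, a strictly inducible HSP70, had 172 and 201 in mimic 2 and control 2, against 48.6 and 35.3 in mimic 1 and control 1. TCP1, STIP1, UNC45A, PPID, HSPA9, LONP1, GRPEL2 and HSPA6 were chosen after their values were seen. Within each list members went both ways except among the small heat shock proteins, of which 2 were measured and both were lower in number 2.

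**Figure D5:**
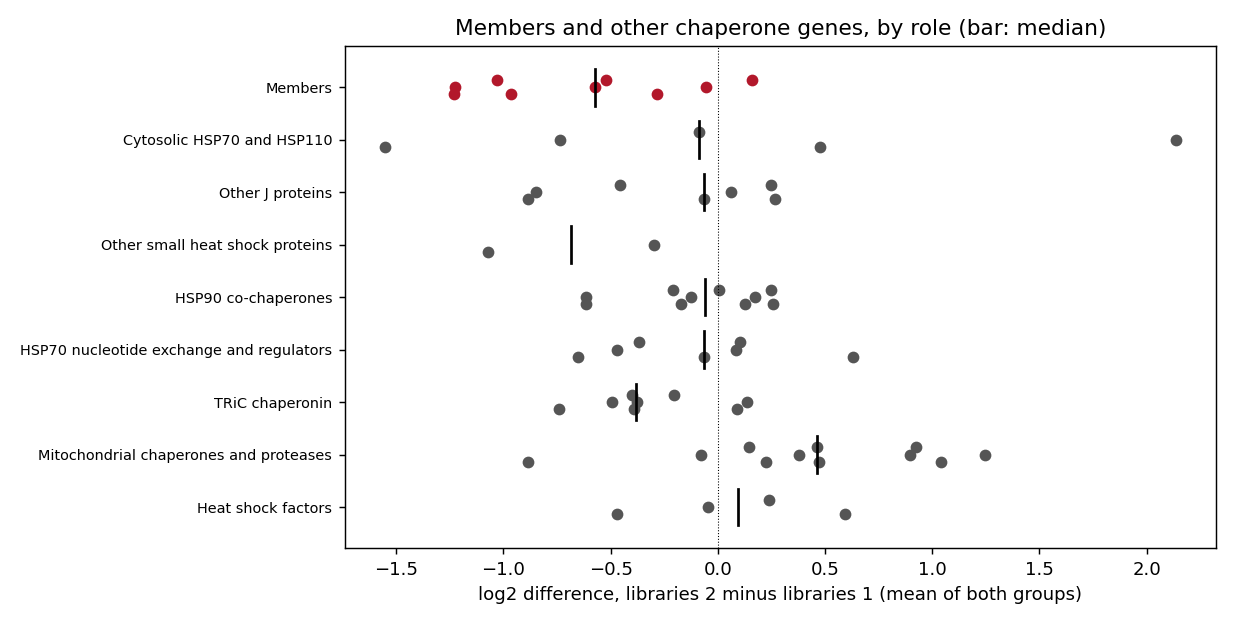
Log2 difference between libraries numbered 2 and 1, averaged over mimic and control, for the 9 members (top row) and 54 other chaperone genes by role. Points are genes and bars the median of a row, -0.57 for the members, -0.38 for TRiC and 0.46 for the mitochondrial list.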

How the data were processed

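The authors deposited 1 table of normalized counts (signal) for Ensembl transcripts, made with kallisto and DESeq2 on hg38, per the submitters' processing notes; versions and the annotation release are not given in the sources used here. In the low values 95.6% to 99.7% were whole multiples of 1 step per library within a tolerance of 0.1. Dividing by that step gave recovered reads for edgeR and DESeq2. The step itself varied between transcripts (values of 1 read spanned 0.601% to 2.74% of it), so high recovered reads are approximate. The lowest row sum was 10 recovered reads. 

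GENCODE 29 held 90627 (89.9%) of the 100809 transcripts, which were summed to 22017 genes. The others held 3.26% to 3.57% of each library. Values were tested as log2(value + 1) with limma and a trend, two-sided, for genes or transcripts with a mean of at least 10, with Benjamini-Hochberg adjustment over all tested at 0.05. Fold changes are on that scale, which understates those of low genes. Sums were also divided by annotated length and scaled to TPM.

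Named genes are all members, their transcripts of at least 5%, the extremes of each chaperone list, the nearest member and 5 nearest genes, and relatives of at least 1%. Members and lists were chosen with earlier results of these data known. Tools were Python 3.11.15 with matplotlib 3.10.9, pandas 2.3.3, numpy 2.4.6 and scipy 1.17.1, and R 4.3.3 with DESeq2 1.42.0, limma 3.58.1 and edgeR 4.0.16. Alternatives were other pseudocounts (0.1, 10), filters (none, 100), TMM and quantile scaling, edgeR and DESeq2, a replicate block, and each library left out.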

Additional observations from a re-analysis of the deposited data

How the results depend on the processing

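No member gene or transcript was called in any setting run. Over all genes the count of 0 became 117 with the replicate number as a block in limma and 91 with a replicate block in edgeR, and 0 members were among them. In limma that is 0.708% of genes. HSPB1 had an unadjusted p of 0.00569 and an adjusted p of 0.301 there with limma, and 0 transcripts (0%) were called, with 2258 at an unadjusted p under 0.05. Of these, 3 were member transcripts. Among them HSPA8-224 had an unadjusted p of 0.00236 and an adjusted p of 0.967 with limma. Its log2 fold changes were -0.35 within number 1 and -0.31 within number 2. HSPA8-201 was at 0.67 and -0.03 there, and HSPA8 as a whole at 0.07 and -0.26. The split of reads between these transcripts is uncertain, since neither has a 31-base word of its own. Deviations from the group means correlated at 0.745 across genes for libraries sharing a number, yet no label makes them pairs. On the log2 scale HSP90AA1 turned to 0.052 with quantile normalization, 0.050 with edgeR and 0.052 with DESeq2, HSP90AB1 to 0.092, 0.012 and 0.012, and DNAJA1 to 0.026, 0.026 and 0.027. DNAJB1 turned to 0.015 with quantile normalization. The causes were not tested. Leaving out 1 library unbalances the numbers between the groups, and all 9 member genes then took both signs. The log2 fold change ran from -0.79 to 0.60 for HSPA8, -0.23 to 0.26 for HSPH1, -0.73 to 0.68 for HSP90AA1, -0.33 to 0.30 for HSP90AB1, -0.11 to 0.078 for DNAJB1, -0.41 to 0.37 for DNAJA1, -0.82 to 0.30 for HSPB1, -0.018 to 0.17 for HSPD1 and -0.62 to 0.68 for HSPE1. By transcript it ran from -0.71 to 0.048 for HSPA8-224, -1.01 to 1.65 for HSPA8-201, -0.65 to 0.67 for HSPH1-209, -0.58 to 0.036 for HSPH1-206, -0.19 to 0.28 for HSPH1-201, -0.74 to 0.69 for HSP90AA1-201, -0.33 to 0.30 for HSP90AB1-203, -0.14 to 0.086 for DNAJB1-201, -0.41 to 0.37 for DNAJA1-201, -0.85 to 0.34 for HSPB1-201, -0.025 to 0.18 for HSPD1-202 and -0.66 to 0.71 for HSPE1-201. Of the other chaperone genes, HSPA2 ran from -0.76 to 1.06, HSPA4L from -0.22 to 0.032, DNAJB5 from -0.33 to 0.62, HSPB8 from -0.30 to 0.0094, HSPB6 from -0.83 to 0.50, FKBP5 from -0.21 to 0.44, FKBP4 from -0.14 to 0.0069, BAG2 from -0.32 to 0.46, HSPBP1 from -0.64 to 0.17, CCT8 from -0.21 to 0.30, CCT3 from -0.34 to 0.20, HSCB from -0.17 to 0.77, CLPP from -0.47 to 0.15 and HSF2 from -0.064 to 0.24. DNAJB2, from -0.29 to -0.023, HSF1, from -0.32 to -0.11, and HSPH1-202, from 0.0022 to 0.32, kept their sign. With a library left out, 1 group had 1 library, which was assumed to vary like the others. Genes over 2-fold lower in number 2 counted 4 with quantile normalization, against 3.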
